A study of Mus musculus with 8 samples.

Results

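Neurons of the thalamus, the relay between the senses and the cortex, are recognized by a set of transcription factors and by the proteins of their glutamate-releasing axons. Of the 24015 entries of a gene count table from P7 mice carrying a deletion of the Scn1a 1b interval, the 8 examined here were found by symbol: Tcf7l2, Lef1, Gbx2, Rora, Prkcd, Slc17a6, Lhx9 and Ntng1. All 8 were found and all 8 were among the 15588 genes that reached 1 CPM (a count scaled to the total of its library) in some library. They were chosen as evidence on which part of the brain each sample held, and not for their response to genotype.

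Poly(A) RNA was sequenced from 8 C57BL/6N mice at postnatal day 7 in 3 groups: WT (no deleted allele, n = 2, both male), 1b+/- (HT in the labels, heterozygous deletion, n = 4, with replicates 1 and 2 male and replicates 3 and 4 female) and 1b-/- (KO in the labels, homozygous deletion, n = 2, both female). The germline deletion was made with Cas9 and removed the alternative 1b start region of Scn1a, which encodes the sodium channel NaV1.1. Because WT animals were male and 1b-/- animals female, sex and genotype cannot be told apart between them. The labels name the tissue hippocampus, dissected from 1 hemisphere, whereas the methods of the study name forebrain. The comparisons asked which genes differed between genotypes, and the thalamic genes bear on whether the dissections held the same tissue.

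Total counts ran from 2947770 in 1b+/- replicate 4 to 20878772 in 1b+/- replicate 3, so that a count of 0 allowed up to 1.0 CPM in the shallowest library and 0.145 CPM in the deepest. Those limits, 3 counts each, cover counting error only. Scn1a itself was at 45.1 and 40.4 CPM in WT, between 15.7 and 26.6 CPM in 1b+/-, and at 3.18 and 2.001 CPM in 1b-/-, so every library matched its genotype label. Library 1b+/- replicate 1 stood apart from the others in genes of the midbrain and hindbrain, which are given with the region lists, and each member comparison is also given without it for the genes that vary most. Per kilobase of exon, genes of neocortical layers had a median mean level of 33.8 RPKM (12 genes), and genes of the hippocampal fields 2.20 RPKM (11 genes). Spink8, a gene of hippocampal field CA1, had at most 5 counts in a library (0 in the lowest) and fell below the filter. Other hippocampal field genes were present, with 7.90 RPKM for Pvrl3 and 4.76 RPKM for Prox1, so these lists do not settle whether the tissue was hippocampus or a larger piece of forebrain.

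In the developing diencephalon, Wnt signalling and its nuclear effectors, among them TCF7L2 and LEF1, help to give the thalamus and the neighbouring habenula their identity. GBX2 and LHX9 are homeodomain factors of thalamic progenitors and young neurons, and RORA is a nuclear receptor of sensory relay nuclei. SLC17A6 (VGLUT2) loads glutamate into synaptic vesicles, NTNG1 (netrin-G1) is a membrane-anchored protein of thalamic axons, and PRKCD is a protein kinase C isoform of relay neurons. None of the 8 is confined to the thalamus: Lef1 is also used by blood vessels and Rora and Slc17a6 by many other neurons.

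The start regions of 3 members are shown because Tcf7l2 and Lhx9 varied most between libraries and moved together, and because Slc17a6 had the only motif match. RefSeq promoters (GRCm38.p6, 250 bases before to 50 after each start, on the strand of the gene) were found for 8 of 8 members, in 14 windows. The first window lies at chr19:55741560-55741859 on the plus strand, the second at chr1:138842395-138842694 on the minus strand and the last at chr7:51624387-51624686 on the plus strand. Capitals mark the homeodomain core TAATTA.
Tcf7l2: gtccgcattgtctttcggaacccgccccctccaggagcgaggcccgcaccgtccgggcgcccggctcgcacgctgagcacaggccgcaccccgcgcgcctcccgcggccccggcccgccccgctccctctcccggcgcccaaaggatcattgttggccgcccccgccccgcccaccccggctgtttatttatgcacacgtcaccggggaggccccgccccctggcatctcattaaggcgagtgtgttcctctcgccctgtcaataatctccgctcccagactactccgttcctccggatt
Lhx9: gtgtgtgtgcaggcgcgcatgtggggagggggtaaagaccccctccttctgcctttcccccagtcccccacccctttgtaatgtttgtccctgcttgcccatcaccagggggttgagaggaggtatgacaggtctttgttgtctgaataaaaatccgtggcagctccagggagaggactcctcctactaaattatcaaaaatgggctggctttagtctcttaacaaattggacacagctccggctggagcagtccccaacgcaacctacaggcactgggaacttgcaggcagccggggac
Slc17a6: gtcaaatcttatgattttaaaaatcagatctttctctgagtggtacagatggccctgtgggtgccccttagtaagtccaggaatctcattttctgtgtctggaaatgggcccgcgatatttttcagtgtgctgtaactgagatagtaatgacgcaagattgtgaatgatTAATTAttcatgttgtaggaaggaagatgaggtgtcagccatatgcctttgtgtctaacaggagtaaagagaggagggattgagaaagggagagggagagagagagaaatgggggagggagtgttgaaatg

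The windows differ in base composition, with 70.0% G and C in Tcf7l2, 55.3% in Lhx9 and 43.0% in this second Slc17a6 start. Each window was searched on both strands for a TCF/LEF core (CTTTGAT), a ROR core (AGGTCA) and the homeodomain core (TAATTA), and these 3 motifs do not overlap one another. The TCF/LEF core was in 0 of 14 member windows and 3.7% of 32851 mouse promoters, and the ROR core in 0 of 14 and 16.3%. The homeodomain core was in 1 of 14, at position 170 of the Slc17a6 window, and in 5.3% of all promoters. A match is a description of letters and not of a bound site, and these windows say nothing about sites elsewhere.

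In the mm9 build used for the counts (positions from GENCODE M1), Tcf7l2 spans chr19:55816300-56008144 on the plus strand and Lef1 chr3:130813389-130927274 on the plus strand. Gbx2 spans chr1:91824537-91829865 and Lhx9 chr1:140721763-140745153, both on the minus strand. Rora spans chr9:68501593-69236053 on the plus strand, Prkcd chr14:31408542-31439396 on the minus strand, Slc17a6 chr7:58877200-58926495 on the plus strand and Ntng1 chr3:109582958-109938426 on the minus strand. Gbx2, Rora and Ntng1 overlap annotated genes on the opposite strand, and Rora overlaps 1 on its own strand. Since the counting was not stated to use strand, these 3 genes may share reads with their overlapping neighbours. The overlaps are of whole gene spans with their introns, and whether exons overlap was not examined.

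Tcf7l2, the Wnt effector of the thalamus and habenula, had the widest range of the 8 members. It was at 117.6 and 13.3 CPM in the WT libraries, at 62.8, 23.3, 14.7 and 8.67 CPM in 1b+/- replicates 1 to 4, and at 19.9 and 66.3 CPM in 1b-/-. WT replicate 1, 1b+/- replicate 1 and 1b-/- replicate 2, 1 library of each genotype, were the 3 highest, and the genotypes overlapped. The highest library was 13.6 times the lowest, and the WT animals alone differed 8.83-fold. In bulk RNA, fewer thalamic cells in a sample, less RNA per cell and a part from other cells cannot be told apart. This holds here and for every member below.

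Lhx9, a LIM-homeodomain factor of thalamic neurons, showed the same 3 libraries at the top. Its levels were 96.3 and 30.5 CPM in WT, 105.6, 25.0, 26.4 and 16.3 CPM in 1b+/-, and 18.4 and 59.8 CPM in 1b-/-. Within 1b+/-, 1 library was above all others, with 6.46-fold between the highest and the lowest. Gbx2, the other homeodomain factor, was close to the depth limit: 5.78 and 2.14 CPM in WT, 2.51, 3.13, 1.89 and 2.67 CPM in 1b+/-, and 2.45 and 3.00 CPM in 1b-/-. These values rest on between 8 and 70 counts, and apart from WT replicate 1 the libraries lay within a narrow band.

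Lef1, the other TCF family member, was at 19.4 and 11.9 CPM in WT, at 32.0, 22.2, 17 and 18.4 CPM in 1b+/-, and at 18.1 and 17.01 CPM in 1b-/-. It was highest in 1b+/- replicate 1 and lowest in WT replicate 2, and WT replicate 1, highest for Tcf7l2, was close to the rest. Rora, the nuclear receptor, was at 40.4 and 21.0 CPM in WT, at 68.2, 32.1, 25.8 and 22.0 CPM in 1b+/-, and at 31.8 and 41.5 CPM in 1b-/-. The same 3 libraries were highest for Rora as for Tcf7l2, over a smaller range of 3.25-fold.

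Slc17a6, the vesicular glutamate transporter, was the most abundant member per length. It was at 139.9 and 90.5 CPM in WT, at 171.8, 116.6, 112.3 and 80.4 CPM in 1b+/-, and at 88.3 and 104.8 CPM in 1b-/-. Ntng1, the axonal adhesion protein, was at 40.6 and 22.1 CPM in WT, at 28.4, 22.8, 22.0 and 17.01 CPM in 1b+/-, and at 17.7 and 37.5 CPM in 1b-/-. For Ntng1 the 3 highest libraries were again WT replicate 1, 1b-/- replicate 2 and 1b+/- replicate 1, whereas Slc17a6 was higher in 1b+/- replicate 2 than in 1b-/- replicate 2.

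Prkcd, the kinase of relay neurons, did not follow the other members. It was at 27.0 and 25.3 CPM in WT, at 27.3, 21.0, 29.5 and 23.7 CPM in 1b+/-, and at 28.6 and 23.5 CPM in 1b-/-. Its highest library, 1b+/- replicate 3, was 1.41 times its lowest, and 1b-/- replicate 2, among the highest for Tcf7l2, was its second lowest.

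**Figure D1:**
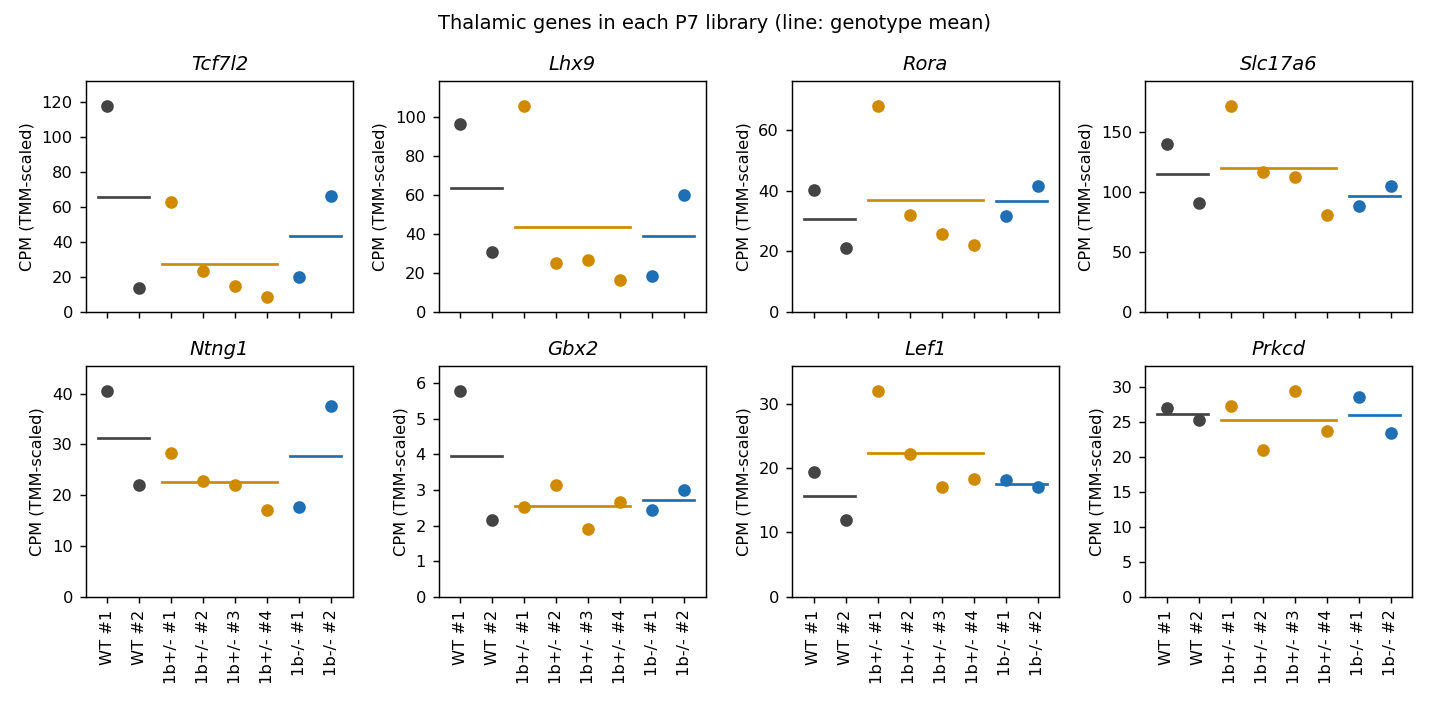
TMM-scaled CPM of each thalamic gene (vertical axis) in the 8 libraries (horizontal axis, grouped by genotype), with 1 point per animal and a line at the genotype mean. WT replicate 1 and 1b+/- replicate 1 lie far above their genotype's other animals for Tcf7l2 (117.6 and 62.8 CPM) and Lhx9 (96.3 and 105.6 CPM), while Prkcd stays between 21.0 and 29.5 CPM.

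Per kilobase of annotated exon, the mean level over 8 libraries was 26.2 RPKM for Slc17a6, 8.53 for Lhx9, 5.93 for Ntng1, 5.16 for Prkcd, 4.67 for Tcf7l2, 2.699 for Rora, 2.25 for Lef1 and 0.695 for Gbx2. Of the 7 neighbouring pairs in that order, Slc17a6 (18.6 to 39.8 RPKM) was above Lhx9 (2.95 to 19.1 RPKM) and Lef1 (1.38 to 3.70 RPKM) above Gbx2 (0.445 to 1.36 RPKM) in 8 of 8 libraries. For the other pairs the order held in 4 to 6 of 8 libraries.

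The spread between libraries separated the members further. On the log2(CPM + 0.5) scale the SD over 8 libraries was 1.31 for Tcf7l2 and 1.04 for Lhx9, which was wider than 99.7% and 99.4% of the 15588 genes tested. It was 0.55 for Rora, 0.45 for Ntng1, 0.42 for Gbx2, 0.39 for Lef1 and 0.36 for Slc17a6, beside a median of 0.26 over all genes tested. Prkcd, with an SD of 0.16, was wider than 21.4% of genes, so 7 of the 8 members were wider than the median gene. Read counting alone gives an SD of 0.13 for Tcf7l2, 0.11 for Lhx9 and 0.11 for Prkcd at these depths. For Gbx2 it gives 0.33, an average over libraries of unlike depth. WT replicate 1, with 70 counts of Gbx2, alone lay 1.03 above that gene's median on the log2 scale.

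**Figure D2:**
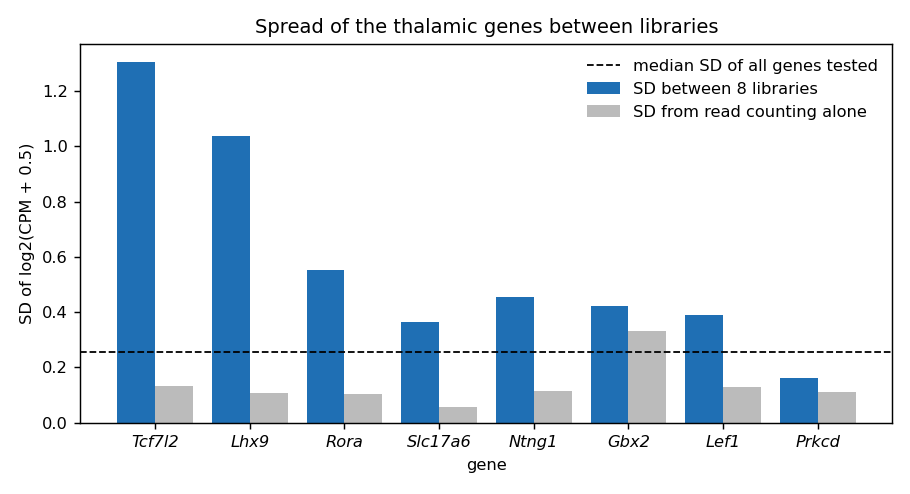
SD of log2(CPM + 0.5) over the 8 libraries (vertical axis) for each thalamic gene (horizontal axis), beside the SD that read counting alone would give; the dashed line is the median SD of all genes tested, 0.26. Tcf7l2 (1.31) and Lhx9 (1.04) stand well above their counting SD of 0.13 and 0.11, and Prkcd (0.16) is below the line.

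For all 8 members, the animals of at least 1 genotype differed by more than the genotype means did. Means of 2 to 4 animals vary less than single animals, so this is a description and not a trait of these genes. It held for Prkcd too, at 1.41-fold in 1b+/- against 1.03. For Tcf7l2 the animals of 1 genotype differed 8.83-fold (WT), 7.25-fold (1b+/-) and 3.32-fold (1b-/-), against 2.39-fold between the highest and the lowest genotype mean. For Lhx9 the values were 3.16, 6.46 and 3.26 against 1.62, and for Rora 1.93, 3.10 and 1.31 against 1.21. For Lef1, Slc17a6 and Gbx2 the 1b-/- animals differed by less than the genotype means did, at 1.06-fold against 1.43, 1.19 against 1.25 and 1.23 against 1.56.

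Individual libraries carried this spread across members. WT replicate 1 was the highest library for 3 of 8 members, among the top 3 for 7 and above the gene's median for all 8. Library 1b+/- replicate 1 was highest for 4 and among the top 3 for 7, and 1b-/- replicate 2 was among the top 3 for 5. At the other end, 1b+/- replicate 4, the shallowest library, was lowest for 4 members, and WT replicate 2 was lowest for 2 and among the top 3 for none. The summed level of the 8 members was 487 CPM in WT replicate 1 and 217 CPM in WT replicate 2, from 189 to 499 CPM in 1b+/-, and 225 and 353 CPM in 1b-/-.

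**Figure D3:**
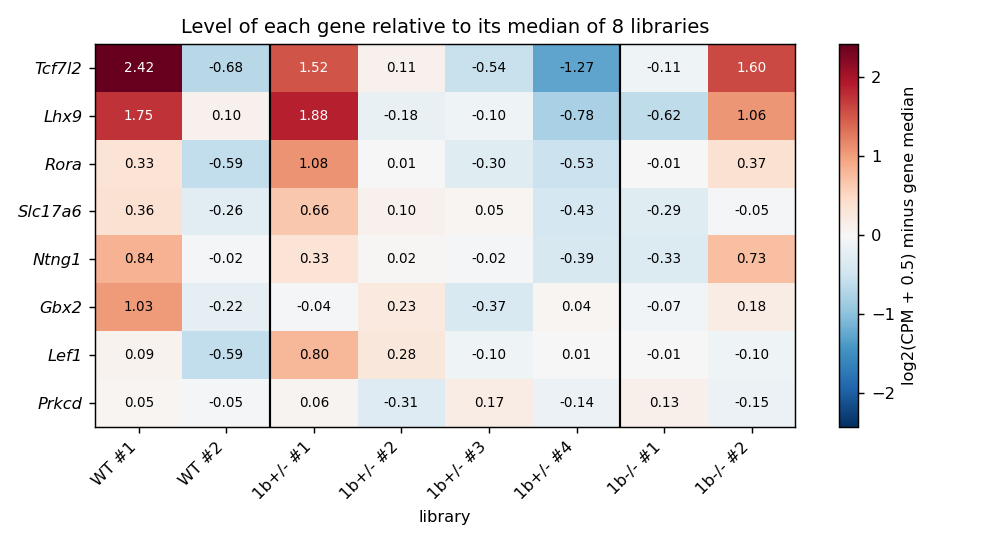
Level of each thalamic gene (rows) in each library (columns, grouped by genotype) as log2(CPM + 0.5) minus the gene's median over 8 libraries, with red above and blue below the median. WT replicate 1 (2.42 for Tcf7l2), 1b+/- replicate 1 (1.52) and 1b-/- replicate 2 (1.60) are red for most genes, 1b+/- replicate 4 is blue for Tcf7l2 (-1.27), and the Prkcd row stays near 0.

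Across the 8 libraries, which share their tissue source and differ in depth, Pearson's r of log2 levels was 0.92 between Tcf7l2 and Ntng1, 0.91 between Tcf7l2 and Lhx9 and 0.89 between Lhx9 and Ntng1. The median over the 28 pairs of members was 0.57. The 7 pairs with Prkcd had a median of 0.09, from -0.20 to 0.20, and the other 21 pairs a median of 0.71, from 0.19 to 0.92. Without the 2 libraries farthest from the median of the first gene of each pair, those 21 pairs had a median of 0.62, from -0.03 to 0.98. Lef1 with Rora fell from 0.81 to 0.095 and Tcf7l2 with Gbx2 from 0.71 to 0.21, so these pairs rest on 2 libraries, while Tcf7l2 with Lhx9 was at 0.86, Tcf7l2 with Ntng1 at 0.80 and Lhx9 with Ntng1 at 0.98. These are descriptions over 8 points. The 11219 other genes with a mean of at least 5 CPM were compared with the mean of the members' standardised levels, and the most alike was Pou4f1, a POU factor of habenular neurons, with r = 0.97 and rho = 0.95. Without WT replicate 1 and 1b+/- replicate 1, the 2 libraries farthest from the median, r was 0.94. Pou4f1 was at 16.2 and 0.459 CPM in WT, 22.5, 3.94, 1.02 and 0.334 CPM in 1b+/-, and 1.10 and 8.76 CPM in 1b-/-, so the same 3 libraries were high. That was set by the choice of the gene most like the members and is no separate evidence. Its mean of 6.79 CPM passed the limit of 5 only through these libraries, and its median was 2.52 CPM. The r of 0.94 still includes 1b-/- replicate 2, 1 of the 3. The next were Zmat4 (r = 0.92), Cpm, a membrane carboxypeptidase (0.92), Cntn4, an axonal contactin (0.92), and Exosc8, an exosome subunit (0.91). For Zmat4, Cpm and Exosc8, r fell to 0.76, 0.76 and 0.77 without those 2 libraries, and for Cntn4 it was 0.93.

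No member passed an adjusted p of 0.05 between WT and 1b+/- in edgeR's quasi-likelihood test, 0 also passed an unadjusted p of 0.05, and 0 passed in the likelihood ratio test or in DESeq2. Over all genes, 0.0834% (13 of 15588) passed the adjusted and 4.34% the unadjusted threshold. The genotype groups did not overlap for 12.3% of genes and for 0 of 8 members. Tcf7l2 had a log2 fold change of -1.22 ± 0.76 (SE, 95% interval -2.88 to 0.44, adjusted p = 0.9999) and Lhx9 of -0.52 ± 0.67 (-1.98 to 0.94). For Lef1 it was 0.51 ± 0.28 (unadjusted p = 0.0918) and for Gbx2 -0.71 ± 0.40 (unadjusted p = 0.0983). For Prkcd it was -0.04 ± 0.18. The 8 log2 fold changes had a median of -0.25, beside 0.01 over all genes. Without WT replicate 1 the Tcf7l2 value turned to 1.09, and without WT replicate 2 it was -2.05. Without 1b+/- replicate 1, the library that stood apart, Tcf7l2 was at -2.03, Lhx9 at -1.46 and Rora at -0.20, against 0.28 with it, and 2 members passed an unadjusted p of 0.05. The share over all genes in that fit is not given here, so this count has no background beside it. All WT animals were male: with sex as a covariate Tcf7l2 was at -0.61, Lef1 at 0.78, Rora at 0.70 and Lhx9 at 0.0378, and in males alone at -0.61, 0.78, 0.71 and 0.0433. In each of these fits 1 member passed an unadjusted p of 0.05 and 0 passed the adjusted threshold. The counts over all genes are given with the alternatives. With WT all male, both fits compare the male 1b+/- animals with WT, so their likeness was set by the design.

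Between 1b-/- and WT, 0 members passed the adjusted threshold (0.00642% of all genes, 1 gene), 0 the unadjusted threshold (1.64%) and 0 had groups that did not overlap (23.6%), and the likelihood ratio test and DESeq2 also called 0. The log2 fold changes ran from -0.75 ± 0.81 for Lhx9 (95% interval -2.52 to 1.02) to 0.23 ± 0.47 for Rora, each with adjusted p = 1. Tcf7l2 was at -0.66 ± 0.92 (-2.67 to 1.36), and turned to 1.67 without WT replicate 1 and to 1.145 with sex as a covariate. That covariate is estimated in 1b+/- alone, where Tcf7l2 was at -1.80 between females and males. The value of 1.145 is therefore not a genotype effect freed of sex. Without 1b+/- replicate 1, which is in neither group, Tcf7l2 was at -0.66 and Lhx9 at -0.75. Prkcd was at 0.00 ± 0.22 (-0.47 to 0.47), the narrowest interval of the 8, while the intervals of Tcf7l2 and Lhx9 leave room for changes of more than 1 on the log2 scale in either direction. This comparison shares the WT libraries with that of 1b+/-.

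Between 1b-/- and 1b+/-, 0 members passed the adjusted threshold (0.00642% of all genes), 0 the unadjusted threshold (1.23%) and 0 did not overlap (7.39%), and the other 2 tests called 0. The log2 fold changes ran from -0.36 ± 0.28 for Lef1 to 0.56 ± 0.80 for Tcf7l2 (95% interval -1.19 to 2.31, adjusted p = 1), with a median of -0.01. Among females alone, Rora was at 0.59 and Lhx9 at 0.77, with adjusted p = 1 in both, against -0.05 and -0.23 with all libraries, and 2 members passed an unadjusted p of 0.05. This count too has no share over all genes beside it, as the 1.23% above is from the fit of all libraries. Without 1b+/- replicate 1, Tcf7l2 was at 1.37, Lhx9 at 0.71 and Rora at 0.43, and 0 members passed either threshold.

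Both sexes were present in 1b+/- alone, and there 7 of 8 members were lower in females in their fitted value and 0 of 8 passed the adjusted threshold (0.0321% of all genes, 5 genes). Rora was at 25.8 and 22.0 CPM in females and 68.2 and 32.1 CPM in males, a log2 fold change of -1.06 ± 0.38 (unadjusted p = 0.0178, adjusted p = 0.9999). Lef1 was at -0.63 ± 0.28 (unadjusted p = 0.0442, adjusted p = 0.9999), Tcf7l2 at -1.80 ± 0.87 (unadjusted p = 0.0639), and Lhx9 at -1.56 ± 0.72 (unadjusted p = 0.055). At an unadjusted p of 0.05, 2 of 8 members were called, against 2.66% of all genes, and the 2 sexes did not overlap for 5 of 8 members, against 26.2% of all genes. Each sex has 2 animals here, and 1b+/- replicate 1 is a male: without it Tcf7l2 was at -0.89, Lhx9 at -0.16, Rora at -0.40 and Lef1 at -0.34, and 0 members passed an unadjusted p of 0.05. The likelihood ratio test and DESeq2 called 0 members. When genes with low counts were kept, edgeR called 3 members, as given with the alternatives.

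**Figure D4:**
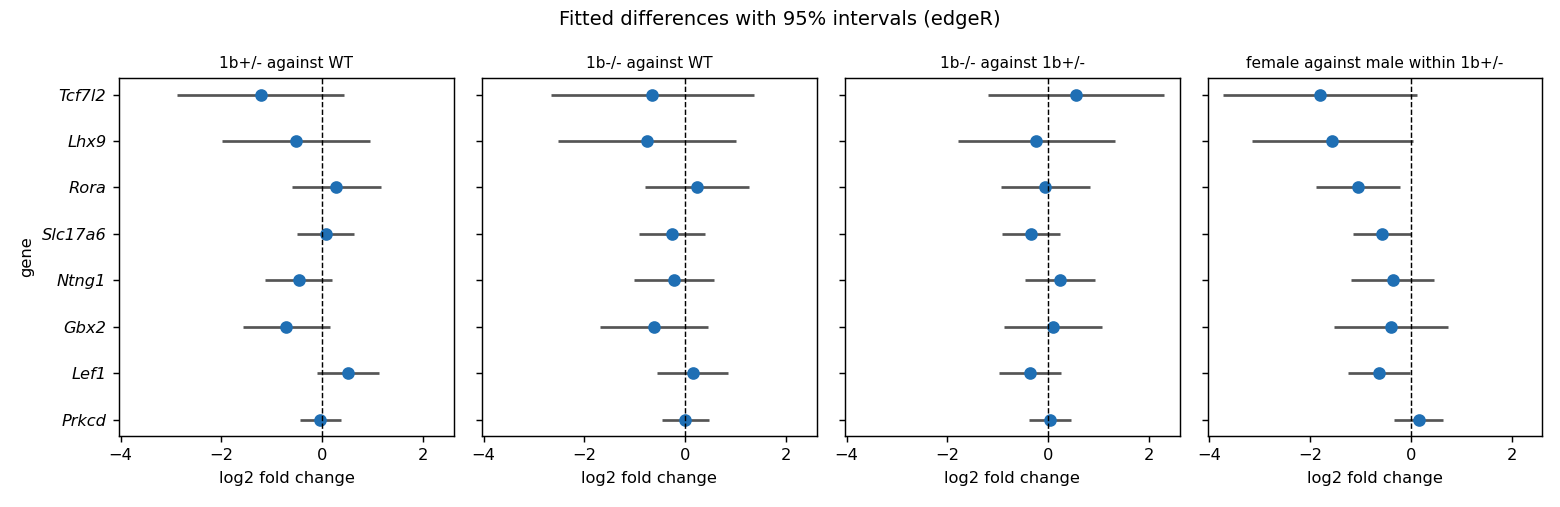
Fitted log2 fold change (horizontal axis) of each thalamic gene (vertical axis) in 4 comparisons, with points at the edgeR estimate and lines as 95% intervals; the dashed line marks 0. In the 3 genotype panels every interval crosses 0, and in the panel of sex within 1b+/- those of Rora (-1.06) and Lef1 (-0.63) do not, before adjustment over genes.

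Members were next compared per exon length with their paralogues, which are not all genes of other cells. Slc17a6 was above Slc17a7 (VGLUT1), the transporter of cortical neurons, in 8 of 8 libraries, with a ratio from 1.57 in 1b-/- replicate 2 to 5.14 in 1b+/- replicate 1 and a median of 2.34. Ntng1 was above Ntng2 in 8 of 8, from 2.12 to 5.90. Rora was below Rorb, a receptor of cortical layer 4, in 8 of 8, with ratios from 0.158 to 0.581, and Lhx9 was below Lhx2, a factor of cortical progenitors, in 8 of 8, from 0.0727 to 0.806. Lhx2 is also on the further list of thalamic genes given below, so its ratio does not set thalamic against other cells. The Rora to Rorb and Lhx9 to Lhx2 ratios were both highest in 1b+/- replicate 1.

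The Tcf7l2 to Lef1 ratio ran from 0.468 in 1b+/- replicate 4 to 6.00 in WT replicate 1 and was above 1 in 6 of 8 libraries. Tcf7l2 to Tcf7 ran from 0.395 to 8.57, Lef1 to Tcf7 from 0.604 to 2.74, and Tcf7l2 to Tcf7l1 from 1.51 to 20. Slc17a6 was 29.4 to 78.9 times Slc17a8 (VGLUT3), and Gbx2 to Gbx1 from 1.30 to 19.5, the last on low counts. Prkcd stayed between 0.28 and 0.413 of Prkca, the narrowest of these ranges. Of the 16 paralogues and partners, Ctnnb1, the beta-catenin that TCF7L2 and LEF1 bind, had the narrowest spread (SD 0.09), and their summed level was between 1818 and 2037 CPM. In the 3 genotype comparisons no paralogue or partner was below an adjusted p of 0.9999.

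**Figure D5:**
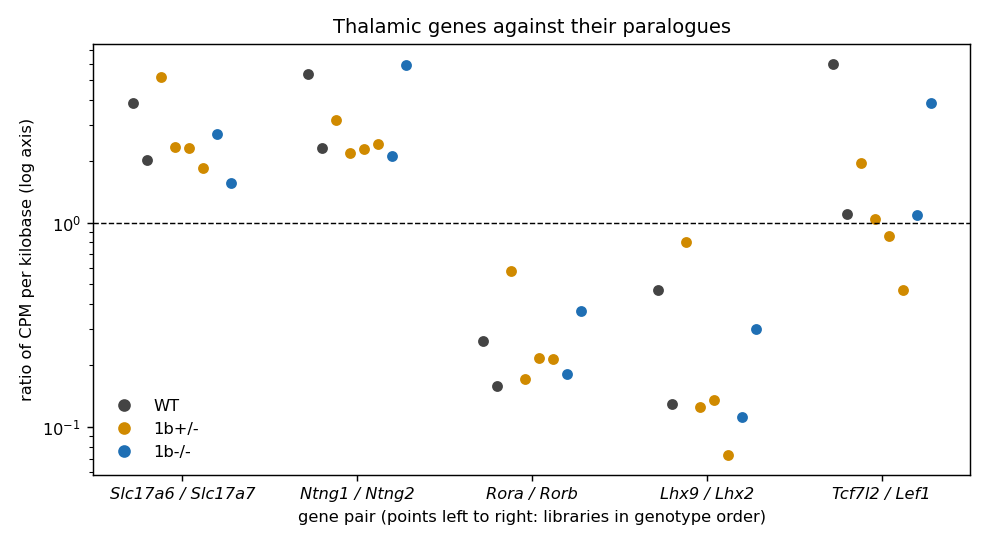
Ratio of CPM per kilobase of exon (vertical log axis) for 5 gene pairs (horizontal axis), with 1 point per library coloured by genotype and a dashed line at 1. Slc17a6 to Slc17a7 and Ntng1 to Ntng2 lie above 1 in every library, Rora to Rorb and Lhx9 to Lhx2 below 1 in every library, and Tcf7l2 to Lef1 spreads from 0.468 to 6.00.

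A further list of thalamic genes gave a second reading: 16 of 16 were tested, and the lowest adjusted p in edgeR's quasi-likelihood test over the 4 comparisons was 0.9999. Of these, Zic4 was below an unadjusted p of 0.05 between 1b+/- and WT, and Zic1, Zic4 and Zfhx3 were between sexes within 1b+/-. Their median spread (SD 0.31) was narrower than that of the members (0.44). Their summed level ran from 731 to 998 CPM and was led by Zic1, Foxp2 and Amotl1, all of which other brain regions also express. Foxp2 was highest in 1b+/- replicate 1 at 227.4 CPM and Zic1 in 1b+/- replicate 2 at 334.5 CPM. The list did not repeat the order of the members, and its sum was highest in 1b+/- replicate 2. Library 1b-/- replicate 2, high for Tcf7l2, was lowest for 5 of the 16, among them Plekhg1, Rgs16 and Tnnt1, and highest for 1. Library 1b+/- replicate 1 was highest for 4 and lowest for 2, 1 of them Synpo2 at 4.29 CPM.

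The habenula and prethalamus list (10 of 10 tested) had a median SD of 0.63, with Pou4f1 the widest at 1.89. Irx1 and Irx2, Iroquois factors of the diencephalon and midbrain, were also highest in 1b+/- replicate 1 (13.9 and 15.8 CPM) and next in WT replicate 1 (4.96 and 5.29 CPM), and were at 2.75 and 2.50 CPM in 1b-/- replicate 2. The summed level of the list went the other way. It was lowest in 1b+/- replicate 1, at 268.4 CPM, against 277.7 to 360 CPM in the other libraries. Of the 10 genes, 5 were highest in 1b+/- replicate 1 and 2, Pax6 and Sp9, were lowest there. Gpr151 was highest in 1b-/- replicate 2, at 2.25 CPM on 9 counts. The lowest adjusted p of the list was 0.9999. Of the Wnt feedback targets, 8 of 8 were tested with a median SD of 0.35. Axin2, the general readout of the pathway, was narrow (SD 0.17) where Tcf7l2 was wide. In 1b+/- replicate 4, the shallowest library and the one with the least Tcf7l2, 4 of the 8 targets were highest (Apcdd1, Axin2, Nkd1 and Rnf43, the last on 9 counts). Others went the other way: Sp5, the widest of the list (SD 0.94), was highest in 1b+/- replicate 1 at 7.06 CPM. Znrf3 was lowest in 1b+/- replicate 4 at 11.3 CPM. Endothelial genes, of a cell type that also uses Wnt signalling, were highest there too, at 506 CPM in sum and in 6 of 10 genes, and their part in the Wnt target levels was not tested.

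Genes of the midbrain and hindbrain stood out in 1b+/- replicate 1, and En1, En2 and Pax7 were low in the other libraries high for Tcf7l2. En1, En2 and Pax7, patterning factors of the midbrain and hindbrain, were at 10.3, 15.6 and 7.98 CPM in 1b+/- replicate 1, at most 0.909 CPM in WT replicate 1, and at 0, 0.25 and 0 CPM in 1b-/- replicate 2. Of the 16 genes on that list 12 were tested, and 8 of those were highest in 1b+/- replicate 1. Gata3 was at 16.8 CPM there and at 4.13 CPM in WT replicate 1, against 0.459 CPM in WT replicate 2. The summed level of the 12 was 15.9 and 9.34 CPM in WT, from 6.67 to 86.9 CPM in 1b+/- and 14.7 and 7.504 CPM in 1b-/-. The part of these cells in the level of Rora, Slc17a6 or Lhx9 in that library was not tested. Of 12 neocortical layer genes, 6 were lowest there and 1, Rasgrf2, was highest. Their summed level was 2143 CPM there, 2506 CPM in 1b-/- replicate 2 and between 2831 and 3863 CPM in the other libraries.

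Choroid plexus genes, from a tissue within the ventricles, varied too but in another order. Their summed level was 969 and 1029 CPM in WT, from 30.5 to 977 CPM in 1b+/- and 426 and 845 CPM in 1b-/-, and 8 of 8 were tested. Ttr, the main one, was at 885.6 CPM in 1b+/- replicate 4, where 4 members were lowest, and at 168.0 CPM in 1b+/- replicate 1, where 4 were highest. Among the remaining lists, summed levels ran from 5.87 to 13.95 CPM for hypothalamic genes, 62.7 to 101.6 CPM for cerebellar genes, 567 to 944 CPM for striatal genes and 236 to 333 CPM for hippocampal field genes. They ran from 343 to 506 CPM for endothelial genes, 38.0 to 49.3 CPM for microglial genes and 770.5 to 1077 CPM for astrocyte genes. Over all of these lists the lowest adjusted p in any of the 4 comparisons was 0.2945, for the hippocampal field list between 1b+/- and WT.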

How the data were processed

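Total RNA of 8 P7 mice was made into stranded poly(A) libraries by the authors and read as single ends of 50 bases. Per the labels and the methods, the authors aligned reads to mm9 with STAR 2.7.2 and used featureCounts to count reads over genes. The strand setting and annotation release were not given in the sources used here. The deposited values are whole read counts per gene symbol, not normalized, and all 8 columns were used. The labels list 8 samples, taken here as separate animals.

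Counts were tested with edgeR 4.0.16 (quasi-likelihood, TMM scaling, R 4.3.3) over the 15588 genes that reached 1 CPM in some library, in 1 fit of all 8 libraries with genotype as the only variable, and p-values were adjusted by Benjamini-Hochberg over all genes. Sex was compared within 1b+/- by splitting that group. CPM values are TMM-scaled, RPKM divides them by the union of GENCODE M1 exons, and log2 levels use a pseudocount of 0.5. The fit was tested on simulated counts. DESeq2 1.42.0, the likelihood ratio test, other scalings and filters, sex as a covariate and leaving out libraries were the alternatives. The members and gene lists were chosen with earlier results of these data known. All 8 members are named in full; of other lists, genes past the threshold are named, otherwise those of highest mean CPM, and the 5 genes most like the members by Pearson's r. Pou4f1, Irx1, Irx2, En1, En2, Pax7, Zic4, Zfhx3, Rnf43, Sp5, Znrf3, Gata3, Rasgrf2, Prox1 and Spink8 were singled out from the lists after their values were seen. The same holds for Gpr151, Pax6, Sp9, Synpo2, Plekhg1, Rgs16 and Tnnt1. With 2 to 4 animals a group, p-values measure the spread between these animals only.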

Additional observations from a re-analysis of the deposited data

Results flagged for a closer look

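Within 1b+/-, the level of Lhx9 in replicate 1 (105.6 CPM) was far above those of replicates 2 to 4 (25.0, 26.4 and 16.3 CPM). The gap to the nearest of the other 3 libraries was 0.887 of the group's whole range, above Dixon's critical value at the 95% level for 4 samples. Of 23 measures examined in this group (8 members and 15 list sums), 1 passed that limit, and chance alone flags about 1 in 20, or 1.15 of 23. The gap was 0.782 of the range for Rora, 0.73 for Tcf7l2 and 0.765 for the summed midbrain and hindbrain genes, below the limit. The same library held 10.3 CPM of En1 and 15.6 CPM of En2, and their part in its Lhx9 level was not tested.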

How the results depend on the processing

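In the 3 genotype comparisons no alternative brought a member past the adjusted threshold, with a lowest adjusted p of 0.7148, and the median SD of the members stayed between 0.40 and 0.47. Between sexes within 1b+/-, edgeR with no filter on low counts called 3 members, against 0: Tcf7l2 at -1.79 (adjusted p = 8.326e-10), Lhx9 at -1.55 (3.273e-08) and Rora at -1.04 (0.007978). That fit called 85 genes among all genes with a count. The SE of Tcf7l2 was 0.249 in that fit and 0.869 in the filtered one, and the cause was not tested.

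Some log2 fold changes turned sign where sex was modelled, and more where 1 library was left out. Only 1b+/- holds both sexes, so the sex covariate is estimated from those animals alone. Against WT it leaves nearly the same contrast as males alone, and against 1b-/- as females alone, so those fits are not separate readings. Between 1b+/- and WT, Lhx9 was at 0.0378 with sex as a covariate and 0.0433 in males alone. With WT as the reference for 1b-/-, and sex as a covariate, Tcf7l2 was at 1.145, Prkcd at -0.15, Slc17a6 at 0.31, Lhx9 at 0.81 and Ntng1 at 0.14, and Prkcd was at -0.00869 with no filter. For 1b-/- against 1b+/-, sex as a covariate gave Lef1 0.00286, Rora 0.59, Prkcd -0.04005 and Lhx9 0.77, and females alone gave 0.00859, 0.59, -0.0384 and 0.77.

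Leaving out 1 library at a time, the log2 fold change between 1b+/- and WT ran from -2.05 to 1.09 for Tcf7l2, -1.21 to 0.22 for Gbx2, -0.20 to 0.84 for Rora, -0.12 to 0.04998 for Prkcd, -0.21 to 0.42 for Slc17a6, -1.46 to 0.55 for Lhx9 and -0.83 to 0.0529 for Ntng1. Between 1b-/- and WT it ran from -1.73 to 1.67 for Tcf7l2, -0.14 to 0.56 for Lef1, -1.11 to 0.32 for Gbx2, -0.15 to 0.80 for Rora, -0.16 to 0.13 for Prkcd, -0.54 to 0.0911 for Slc17a6, -1.80 to 0.32 for Lhx9 and -0.83 to 0.30 for Ntng1. Between 1b-/- and 1b+/- it ran from -0.51 to 1.37 for Tcf7l2, -0.0455 to 0.26 for Gbx2, -0.25 to 0.43 for Rora, -0.12 to 0.16 for Prkcd, -1.28 to 0.71 for Lhx9 and -0.37 to 0.71 for Ntng1, and between sexes from -0.0298 to 0.37 for Prkcd. Where 1 library was left in a group, its spread was taken from the pooled fit.

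Counts over all genes depended on the fit. Between 1b+/- and WT they were 57 with no filter, 64 by the likelihood ratio test, 24 by DESeq2, and 0 with sex as a covariate (867 at an unadjusted p of 0.05) or in males alone (657), and ran from 0 (without WT replicate 1 or 1b+/- replicate 3) to 30 (without WT replicate 2) when 1 library was left out. For 1b-/- against WT they were 33, 23 and 13 by the first 3 of these and 15 with only the compared groups, and ran from 1 to 16 (without WT replicate 2). Between 1b-/- and 1b+/- the count was 0 or 1, with 0 without either 1b-/- library, and between sexes 85, 20 and 14, from 5 to 46 (without 1b+/- replicate 2).

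Depth limits Gbx2, which had between 8 and 70 counts in a library, and the 2 WT and 2 1b-/- animals limit every genotype comparison. No paired analysis was possible because the numbers given to replicates here follow the order of the samples and pair none of them.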
